A study of Mus musculus with 2 samples.

Results

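The 6 genes described here encode structural RNAs that work inside ribonucleoprotein particles rather than as messages: Rn7s1 and Rn7s2 (the RNA of the signal recognition particle), Rn7sk (7SK RNA), Rpph1 (the RNA of ribonuclease P), Rmrp (the RNA of ribonuclease MRP) and Terc (the RNA template of telomerase). They were taken by gene symbol from the 55536 annotated mouse genes of the deposited tables. The symbols matched 7 gene models, because Rmrp is annotated as a pair of nested genes, and gave 5 quantities once the identical Rn7s1 and Rn7s2 and the nested Rmrp models were summed. Total RNA was sequenced from the heart of 2 adult male mice of strain B6CASTF1/J, a first-generation hybrid of a laboratory C57BL/6 parent and a wild-derived CAST parent, at an age of 8 to 10 months. The labels name no treatment, allele or second condition, so both libraries form 1 group. Replicate 1 came from the mouse numbered 2 and replicate 2 from the mouse numbered 4, each from 300 ng of RNA after removal of ribosomal RNA and with a strand-marking kit. The labels give both animals 1 shared donor entry. No p-value is given: with 2 animals the smallest that exact sign flips could reach is 0.5 (two-sided), and levels stand with the SD over the libraries.

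The signal recognition particle binds signal peptides as they leave the ribosome and brings the ribosome to the endoplasmic reticulum; its RNA is the scaffold on which the proteins sit. 7SK RNA holds the elongation kinase P-TEFb in an inactive particle and so limits the release of paused RNA polymerase II. RNase P trims the 5′ ends of transfer RNA precursors, the related RNase MRP cleaves within ribosomal RNA precursors, and telomerase RNA carries the template that Tert copies onto chromosome ends. RNA polymerase III makes the first 4 of these RNA species, and RNA polymerase II makes telomerase RNA. The mature RNAs carry no poly(A) tail, so they are read in total RNA and largely missed when poly(A) RNA is selected.

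The sequences below are the annotated RNAs (GENCODE M21, mm10), written as DNA letters 5′ to 3′ on the strand of the RNA. Capitals mark sequence shared with another gene model in Rpph1 and Rmrp, which bears on how reads are assigned, and a short known element in Rn7sk and Terc. Rn7s1 and Rn7s2, 300 bases each on chromosome 12, have the same letters at 300 of 300 positions. The first 100 bases of Rn7sk (chr9:78175534-78175633, minus strand) carry the motif GATC in capitals, the short sequence that Hexim proteins are known to contact in human 7SK RNA.
Rn7sk: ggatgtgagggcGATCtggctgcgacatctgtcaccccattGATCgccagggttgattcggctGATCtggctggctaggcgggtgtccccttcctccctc
GATC was searched on the strand of the RNA only. It occurs 3 times in this window, at bases 13, 42 and 64, and nowhere else in the 331 bases. Of the 139316 annotated transcripts of at least 100 bases, 450 (0.323%) hold it as often in their first 100 bases. In Rpph1 (first 300 of 319 bases, chr14:50807468-50807767, minus strand) the capitals mark 103 bases within 31-base runs shared with Rprl3, an RNase P RNA-like gene on chromosome 8. The capitals stand for Rprl3 only, and 203 of the 289 runs of Rpph1 also occur in a transcript of the overlapping gene Ccnb1ip1.
Rpph1: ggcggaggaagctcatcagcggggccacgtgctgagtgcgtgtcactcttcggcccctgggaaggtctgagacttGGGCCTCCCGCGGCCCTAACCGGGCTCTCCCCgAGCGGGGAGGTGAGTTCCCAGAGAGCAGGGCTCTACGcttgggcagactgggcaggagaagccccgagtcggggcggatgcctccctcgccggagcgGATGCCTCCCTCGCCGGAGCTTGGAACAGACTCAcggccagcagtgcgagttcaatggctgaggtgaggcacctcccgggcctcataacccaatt
In Rmrp (chr4:43492783-43493063, minus strand) the capitals mark the shorter of the nested gene models, which is the same RNA without the outer bases at each end.
Rmrp: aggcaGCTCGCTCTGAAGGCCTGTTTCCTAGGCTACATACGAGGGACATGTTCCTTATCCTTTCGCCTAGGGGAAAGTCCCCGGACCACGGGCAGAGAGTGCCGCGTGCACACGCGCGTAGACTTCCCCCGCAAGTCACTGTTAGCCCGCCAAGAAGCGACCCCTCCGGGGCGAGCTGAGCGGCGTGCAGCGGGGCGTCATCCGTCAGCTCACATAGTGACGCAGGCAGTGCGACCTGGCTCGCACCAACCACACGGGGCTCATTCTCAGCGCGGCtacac
In the first 80 bases of Terc (chr3:96414780-96414859, minus strand) the capitals mark CTAACCCT, the template letters.
Terc: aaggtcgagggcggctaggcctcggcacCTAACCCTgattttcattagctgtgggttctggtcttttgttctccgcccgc
Searched on the strand of the RNA only, CTAACCCT lies at bases 29 to 36, and 113 of 140371 annotated transcripts (0.0805%) hold it in their first 80 bases. The annotated Terc begins 26 bases 5′ of the RefSeq start. All of these RNAs are rich in G and C, at 58.0% in Rn7sk, 62.3% in Rn7s1, 63.7% in the longer Rmrp model and 67.1% in both Rpph1 and Terc, against a median of 49.2% over all annotated transcripts.

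Both libraries had the profile of heart tissue and were of similar depth, with 42047303 and 39979844 expected counts on mouse genes in replicates 1 and 2. All 9 heart muscle markers, among them Myh6, Myl2 and Tnnt2, averaged 569 TPM or more (TPM divides counts by length and scales each library to 1 common total), and their summed level was 39873 and 43168 TPM. The 5 red blood cell markers summed to 11660 TPM in replicate 1 and 6319 TPM in replicate 2. All 14 markers of other heart cell types, from endothelium to adipocytes, were read, 12 of them at 1 TPM or more in both libraries, and they summed to 483 and 426 TPM.

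The label of the set as abundant held for 4 of the 5 quantities. Rn7s1 and Rn7s2 together, Rn7sk, Rpph1 and Rmrp ranked 1, 16, 35 and 51 of 55534 by mean TPM, whereas Terc ranked 12107. A second deposited quantification put the 4 at ranks 1, 12, 31 and 44, and Terc at 10556. With the full annotated length as divisor the ranks were 2, 18, 38 and 68, and that of Terc was 12458. The same 4 took a mean of 2.68%, 0.14%, 0.043% and 0.017% of the counts. Together the members took 2.98% and 2.76% of the counts in replicates 1 and 2, but 17.9% and 16.7% of the TPM. The gap between the measures follows from length: the deposited TPM divide by an effective length that is 100 bases shorter than the annotated length, which leaves 200 bases for Rn7s1 and 323 for Terc. Each percent of counts was therefore worth 6.02% of TPM for the members as a whole, with a range over the RNAs of 3.76 for Terc to 6.88 for Rmrp.

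The RNA of the signal recognition particle was the highest RNA of the libraries by TPM. Rn7s1 and Rn7s2 summed had 1167284 expected counts in replicate 1 and 1029064 in replicate 2, or 167734 and 156711 TPM. The mean of 162223 ± 7795 TPM (SD, n = 2) lay above the mitochondrial ribosomal RNA mt-Rnr2, the next in rank, at 119271 ± 4980 TPM. That order depends on the length divisor: divided by the full annotated length, the sum averaged 127365 ± 6382 TPM and mt-Rnr2 131585 ± 5765 TPM, which differ by less than the SD of either.

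The deposited tables give Rn7s1 and Rn7s2 exactly equal values, 583642 counts each in replicate 1 and 514532 in replicate 2. Identical RNAs leave no read that could tell the genes apart, so the even division carries no information about which copy was transcribed, and the sum is the measured quantity. The posterior SD that the authors' quantification attached to each copy was 2.60% and 2.65% of the count in replicate 1 and 3.12% and 3.16% in replicate 2. Annotated copies took almost nothing beside them. Outside the pair, 16 genes share at least one 31-base run with Rn7s1, and 12.6% of its 31-base runs occur in none of them. Of those 16 genes, 2 were read: Rn7s6, which shares 143 of the 270 runs and is 85.0% identical over the aligned length, had 6.12 and 6.04 counts, and Gm26461 had 30.0 and 15.0 counts.

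The genomic surroundings of the pair differ. Rps29, a ribosomal protein gene on the opposite strand, lies 109 bases from Rn7s1 and was read at 441 ± 6.60 TPM, while Nemf, 4017 bases from Rn7s2 on the same strand, was read at 7.17 ± 0.80 TPM. The noncoding models that overlap Rn7s1 or Rn7s2 on the same strand (Gm47287, Gm47295, Gm47299 and Gm47305) were all listed at 0. Gm47295 and Gm47299 are 79 and 80 bases long, shorter than the 100 bases that the first quantification subtracts, so their 0 carries no information.

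Next in order came 7SK RNA. Rn7sk had 59710 counts in replicate 1 and 53036 in replicate 2, or 7429 and 6993 TPM (mean 7211 ± 308 TPM). It lay between Mb (myoglobin, 7736 ± 213 TPM) and Myh6 (the main cardiac myosin heavy chain, 6638 ± 443 TPM), and the values of the 3 genes over the libraries did not overlap. That place held for the first quantification only. In the second, Rn7sk had 10040 and 10454 TPM and lay above Mb, at 8283 and 8064 TPM. Its annotated copies were close to unread despite their likeness. Of 25 other genes that share a 31-base run with Rn7sk, 3 were read, with 28.3 and 13.4 counts in sum over all 25. Gm24447, which shares 211 of the 301 runs (70.1%) and is 82.6% identical, had 0 counts in both libraries. Counting error alone allows up to 3 counts in each, a limit that does not cover how reads from shared runs were assigned. The posterior SD of the Rn7sk count was under 2 counts (1.70 and 1.48), so the authors' quantification left almost no ambiguity in the assignment of these reads.

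The RNA of RNase P was lower again per length. Rpph1 had 18902 and 16717 counts, or 2480 and 2325 TPM (mean 2403 ± 110 TPM). Above it in rank stood Hba-a2 (an alpha globin gene, 2420 ± 1001 TPM), which did not differ from it beyond the SD. Below it stood Tnnc1 (cardiac troponin C, 2152 ± 158 TPM), whose values over the libraries did not overlap those of Rpph1. Rpph1 overlaps the annotated Ccnb1ip1 on the same strand, and 203 of its 289 runs of 31 bases also occur in a Ccnb1ip1 transcript. That gene was given 0 counts in replicate 1 and 2 counts in replicate 2. Parp2, which starts 74 bases from Rpph1 on the opposite strand, was read at 4.23 ± 0.27 TPM.

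Rprl3 was the only other RNase P RNA-like gene with reads in the first quantification. It had 2273 counts in replicate 1 and 2009 in replicate 2, or 344 and 322 TPM, while Rprl1 and Rprl2 were listed at 0 in both libraries. Rprl3 and Rpph1 are 75.8% identical over 330 aligned positions but share only 13 of the 289 runs of 31 bases, so most of their length can be told apart by a read that matches perfectly. Even so, the other deposited quantification gave Rprl3 0.5 counts and 0 counts. The level of Rprl3 thus rests on the choice of quantification, and which is right was not tested.

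The RNA of RNase MRP came after Rpph1. Rmrp had 7427 counts in replicate 1 and 6392 in replicate 2 over both gene models, or 1210 and 1106 TPM (mean 1158 ± 73.8 TPM). Ttn (titin, 1243 ± 105 TPM) and Cox7a1 (a subunit of cytochrome c oxidase, 1147 ± 47.5 TPM) stood beside it in rank and did not differ from it beyond their SD. The longer model, of 281 bases and annotated as a lincRNA, received 4106 and 3327 counts; the shorter, of 271 bases and annotated as a ribozyme, received 3321 and 3065 counts. Each model alone has a posterior SD of 6.51% to 9.30% of its count, far wider than that of the unambiguous Rn7sk, and the second quantification placed all 4975 and 4370 of its counts on the longer model. Only the sum is interpretable. Rmrp and Rpph1 are distant relatives, and here their RNAs were identical at 186 of 352 aligned positions (52.8%) and shared no 31-base run. Ccdc107 overlaps Rmrp on the opposite strand and was read at 10.8 ± 1.20 TPM. Whether strand was used in counting is not given in the sources used here.

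Telomerase RNA was close to the limit of detection. Terc had 12 counts in replicate 1 and 9 in replicate 2, or 1.07 and 0.85 TPM (mean 0.96 ± 0.16 TPM). The exact Poisson 95% intervals of those counts, 6.20 to 20.96 and 4.12 to 17.1, cover counting error only, since reads without molecular identifiers are not independent molecules. No other annotated transcript shares a 31-base run with Terc, so no annotated copy competed for its reads. Its neighbours in rank, Bcdin3d at 0.96 ± 0.099 TPM and Tyro3 at 0.96 ± 0.18 TPM, did not differ from it. In bulk tissue, a low level in every cell and a higher level in a few cells cannot be told apart.

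**Figure D1:**
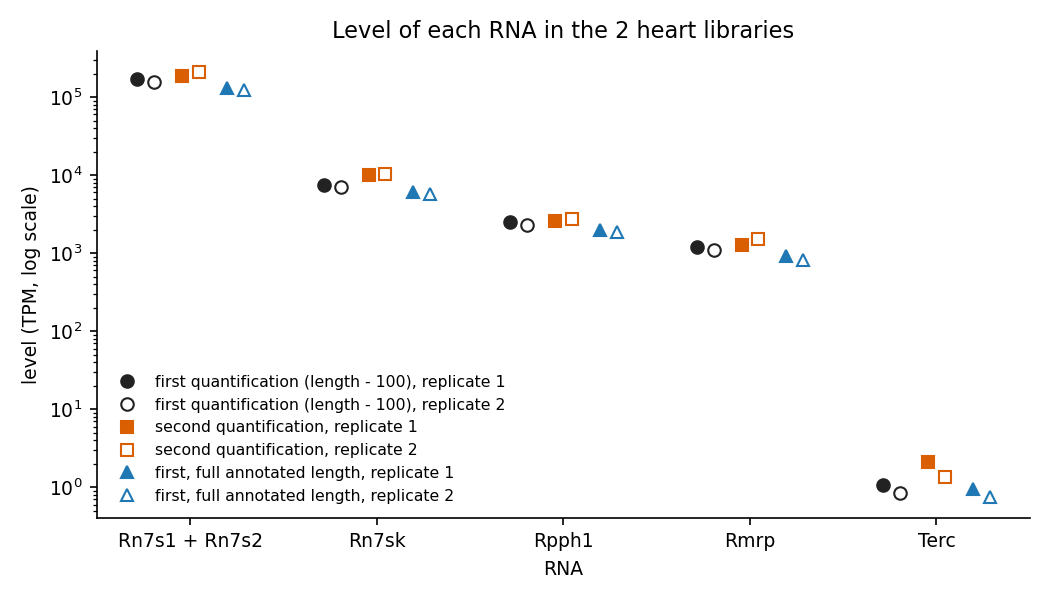
Level of each RNA in TPM on a log axis, with filled symbols for replicate 1 and open symbols for replicate 2; circles are the first quantification, squares the second, and triangles the first with full annotated length as divisor. The order of the 5 RNAs is the same in every column of symbols, and only Terc, at 0.85 and 1.07 TPM in the first quantification, sits below the rest.

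The order of the RNAs was steady within each animal. The summed Rn7s RNA exceeded Rn7sk 22.5-fold in TPM (log2 ratio 4.497 in replicate 1 and 4.486 in replicate 2). Rn7sk exceeded Rpph1 3.001-fold (log2 ratio 1.58 and 1.59), and Rpph1 exceeded Rmrp 2.08-fold (log2 ratio 1.04 and 1.07). Each of these log2 ratios had an SD of 0.026 or less over the libraries, far smaller than the ratio itself. Rmrp exceeded Terc 1213-fold (log2 ratio 10.1 and 10.3), a value limited by the few counts on Terc. The order did not change with the second quantification, where the folds were 19.2, 3.80, 1.94 and 826, nor with the full annotated length.

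**Figure D2:**
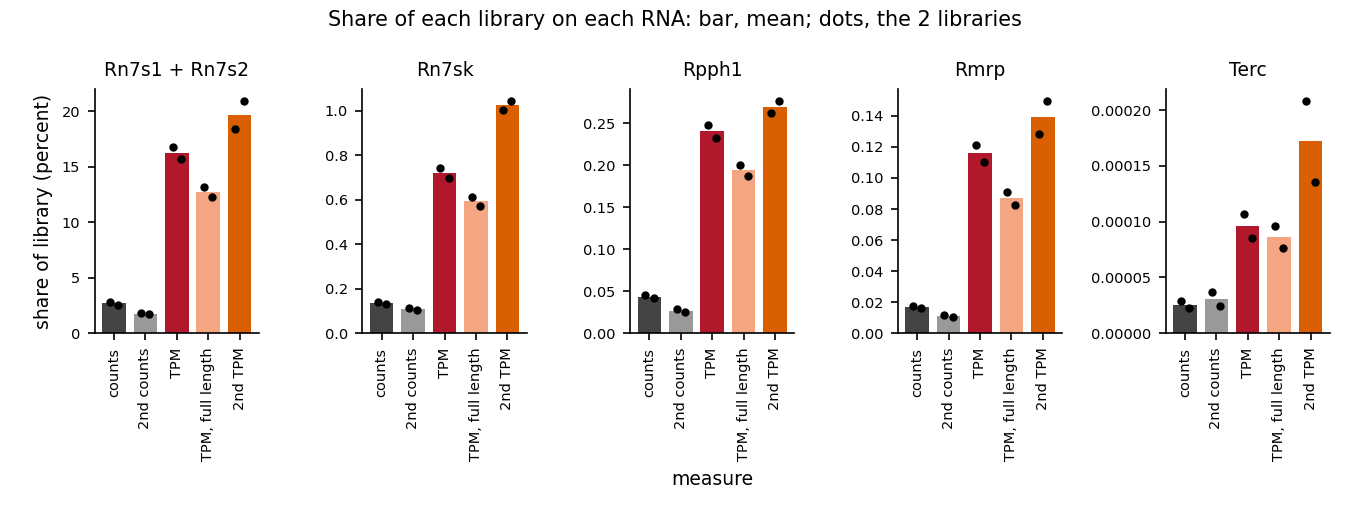
Share of each library on each RNA in percent, as bars from 0 for the mean of both libraries and dots for each library, in 5 measures; each RNA has its own vertical scale and 2nd stands for the second quantification. For the summed Rn7s RNA the share is 2.78% and 2.57% of counts against 16.8% and 15.7% of TPM, and the second quantification gives fewer counts but more TPM.

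The deposited second quantification, made from the reads against the same annotation, gave these RNAs fewer counts. It held 67.3 ± 0.51% of the first quantification's counts for the Rn7s sum, 82.2 ± 1.24% for Rn7sk, 63.8 ± 1.22% for Rpph1 and 67.7 ± 0.98% for Rmrp, while its total over all mouse genes was 103% of the first in each library. Terc alone among the 5 was higher there, with 16 counts in replicate 1 and 10 in replicate 2. In TPM the second quantification was nevertheless higher for all 5, by 1.21-fold for the Rn7s sum, 1.42-fold for Rn7sk, 1.12-fold for Rpph1, 1.20-fold for Rmrp and 1.79-fold for Terc. Its effective lengths are much shorter: Rn7s1 was divided by 101 bases in replicate 1 and 79.4 in replicate 2, against 200 in both libraries of the first. In TPM the members as a whole took 19.8% and 22.4% of the second quantification, against 14.1% and 13.1% when the first was divided by full length. A statement of how much of the RNA pool these genes form therefore depends on the divisor, and the share of counts moved as well, running from 1.83% to 2.98% over both quantifications and libraries.

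Rn7s1, Rn7s2 and Rn7sk held nearly all reads of their annotated type. The 562 genes annotated as misc_RNA (the type of Rn7s1, Rn7s2, Rn7sk and Terc) summed to 169569 ± 8119 TPM, of which 135 ± 16.04 TPM lay outside the members, and 55 of the 562 were read at all. Next in this type came Gm27505 at 63.6 ± 11.7 TPM and Gm27533 at 21.8 ± 0.35 TPM, both above Terc. The 22 annotated ribozyme genes summed to 3288 ± 134 TPM, of which 333 ± 15.5 TPM was Rprl3, and the others apart from Rpph1 and the shorter Rmrp model, such as Gm22714 and Gm22811, were listed at 0. The 5854 lincRNA genes summed to 7829 ± 192 TPM, and the longer Rmrp model was 8.18% and 7.28% of that sum in replicates 1 and 2. The 1385 snRNA genes together reached 4733 ± 90.1 TPM, the 1507 snoRNA genes 2123 ± 66.0 TPM and the 51 scaRNA genes 521 ± 25.6 TPM, and each of these last 3 sums was smaller than Rn7sk alone. Of all 55536 genes, 2452 had an effective length of 0 in the first quantification, where a level of 0 carries no information. Rnu7, an snRNA of 62 bases, and Rnu73b, a snoRNA of 71 bases, are shorter than the 100 bases subtracted. The snRNA and snoRNA sums therefore leave out such short genes and do not measure the whole of either type. The 4 highest of the other named small RNAs were Rprl3, Rnu2-10 (285 ± 3.86 TPM), Scarna2 (197 ± 14.7 TPM) and Snora73b (167 ± 9.60 TPM) in the first quantification. In the second, only Scarna2 kept its level, at 191 TPM, while Rnu2-10 had 0.14 TPM and Snora73b was listed at 0. Some short products of RNA polymerase III had few counts: Rny1, a Y RNA bound by the Ro protein, had 1 and 2 counts, the vault RNA gene Vaultrc5 had 5 and 12, the neuronal RNA gene Bc1 had 1 and 1, and Rny3 and Rnu6 (U6 spliceosomal RNA) were listed at 0. Their annotated lengths of 102 to 168 bases leave little after the 100 bases that the first quantification subtracts, so Vaultrc5 at 5.92 ± 3.65 TPM and Rny1 at 3.74 ± 1.90 TPM stood above Terc in TPM.

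The genes for the protein partners were read at levels far below their RNAs. All 10 genes of the signal recognition particle and its receptor were above 1 TPM in both libraries, with a median of 19.3 ± 1.18 TPM. Srp14, which with Srp9 binds the end of the RNA that pauses translation, was the highest at 46.4 ± 0.46 TPM, and Srp9 had 16.7 ± 1.24 TPM. Srp54a, 1 of 3 annotated genes for the subunit that grips signal peptides, had 30.5 ± 1.77 TPM, Srp54b and Srp54c had 9.26 ± 0.23 and 9.56 ± 0.94 TPM, the assembly subunit Srp19 had 21.5 ± 0.83 TPM, and the paired subunits Srp68 and Srp72 had 22.4 ± 1.36 and 17.1 ± 1.53 TPM. The receptor genes Srpr and Srprb had 32.6 ± 5.70 and 6.98 ± 0.47 TPM. The Rn7s sum exceeded the list's median 9072-fold in replicate 1 and 7773-fold in replicate 2, and exceeded Srp14 about 3499-fold.

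For 7SK RNA the 7 genes of its particle and of P-TEFb had a median of 8.29 ± 0.25 TPM, and 6 of 7 were at 1 TPM or more in both libraries. Ccnt1 and Ccnt2, the cyclins of P-TEFb, had 11.2 ± 1.29 and 6.77 ± 0.78 TPM, and the kinase Cdk9 had 8.76 ± 0.91 TPM. Mepce, which caps the RNA, had 10.4 ± 1.15 TPM and Larp7, which protects its end, 8.31 ± 0.22 TPM. The inhibitor Hexim1 had 6.04 ± 0.62 TPM and its relative Hexim2 0.60 ± 0.27 TPM, the only member of the list below 1 TPM. Rn7sk exceeded the list's median 916-fold and 827-fold in replicates 1 and 2, and 1419-fold in the second quantification.

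RNase P and RNase MRP share most of their proteins. The 11 genes had a median of 5.12 ± 0.98 TPM and 9 were at 1 TPM or more in both libraries. Rpp21, known in human cells as a protein of RNase P, was the highest at 14.2 ± 3.15 TPM, followed by Rpp25l at 12.6 ± 0.16, Pop5 at 11.7 ± 1.46, Rpp14 at 9.46 ± 0.078, Pop7 at 6.65 ± 0.38 and Rpp30 at 5.12 ± 0.98 TPM. Pop4 had 3.05 ± 0.25, Rpp40 1.87 ± 0.52 and Rpp38 1.86 ± 0.38 TPM, while Pop1, the largest protein of both enzymes, had 0.81 ± 0.092 TPM and Rpp25 0.58 ± 0.17 TPM. Rpph1 exceeded the list's median 561-fold in replicate 1 and 400-fold in replicate 2, and Rmrp exceeded it 274-fold and 190-fold. Mitochondria use a protein-only RNase P, and of its genes Hsd17b10, also a fatty acid oxidation enzyme, had 77.6 ± 3.15 TPM and Trmt10c, its methyltransferase subunit, 4.14 ± 0.16 TPM. The third gene found from that list, 1110008L16Rik, had 4.01 ± 0.58 TPM.

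Telomerase was the exception. Terc was the only member below the median of its partners, at 0.23 and 0.21 of that median in replicates 1 and 2. Tert, the catalytic subunit, had 4 counts in replicate 1 and 6 in replicate 2, or 0.04 and 0.05 TPM. Of the proteins that bind the Terc 3′ domain and also serve other H/ACA RNAs, Nop10 had 23.1 ± 1.10 TPM, Nhp2 7.38 ± 1.37, Dkc1 6.67 ± 0.26 and Gar1 5.05 ± 0.28 TPM. Tep1 had 3.79 ± 0.62 TPM, Wrap53, which guides the RNA to Cajal bodies, 2.03 ± 0.42 TPM, and the assembly factor Naf1 1.75 ± 0.16 TPM. In the first quantification Terc and Tert, the parts specific to the enzyme, lay below every other gene named here for it. In the second quantification Terc averaged 1.72 TPM, above Naf1 at 1.56 TPM, and stood at 0.38 of the partners' median, against 0.22 in the first.

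The machinery that transcribes the other RNAs was read at levels far below those RNAs. Of the RNA polymerase III subunit genes, Polr3gl had the highest level at 11.7 ± 0.44 TPM, and its paralogue Polr3g, known from stem and dividing cells, the lowest at 1.72 ± 0.32 TPM. Polr3c, Polr3d and Polr3a had 8.55 ± 0.14, 5.76 ± 0.69 and 5.44 ± 0.85 TPM, and Crcp had 4.38 ± 0.37 TPM. Of the 17 initiation factors, SNAPc subunits and regulators, all were at 1 TPM or more, with a median of 6.83 ± 0.078 TPM. The 4 highest were Maf1, the repressor of the polymerase, at 33.6 ± 2.20 TPM, Ssb (La, which binds the ends of its products) at 20.9 ± 0.43 TPM, the promoter-binding subunit Gtf3c1 at 19.2 ± 2.68 TPM and Gtf3c2 at 9.42 ± 0.54 TPM.

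**Figure D3:**
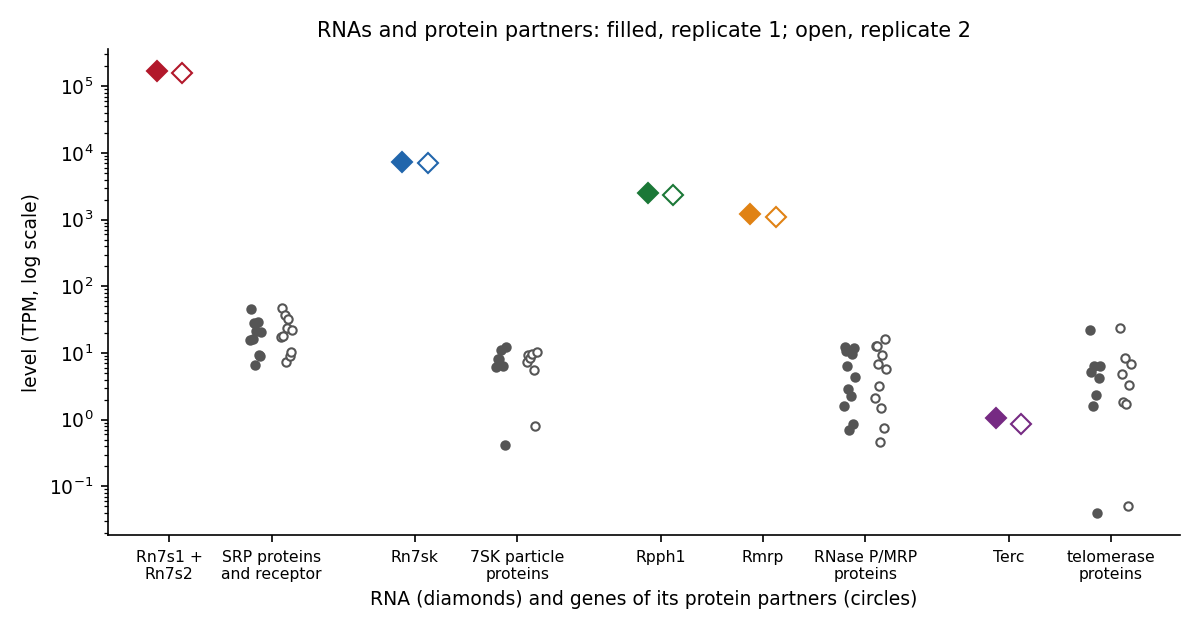
Level in TPM on a log axis of each RNA (diamonds) and of the genes for its protein partners (circles), with filled symbols for replicate 1 and open symbols for replicate 2. The Rn7s sum, Rn7sk, Rpph1 and Rmrp lie above every partner gene, and Terc lies within the range of the telomerase genes, above Tert at 0.04 and 0.05 TPM.

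The animals differed little in these RNAs. After scaling of the counts by the trimmed mean of M-values (TMM), replicate 2 was lower than replicate 1 for every one of the 5 quantities. The log2 ratio of replicate 2 over replicate 1 was -0.14 for the Rn7s sum (interval -0.14 to -0.13), -0.12 for Rn7sk (-0.15 to -0.096), -0.13 for Rpph1 (-0.18 to -0.080) and -0.17 for Rmrp (-0.25 to -0.089). Each interval is exact, covers counting error only and leaves 0.1% of it outside. As folds the 4 ratios ran from 0.89 to 0.92. For Terc the ratio was -0.37 with an interval of -2.77 to 1.87, so no difference was detectable at this depth. Of the 4 quantities with at least 200 summed counts, none differed by 2-fold, against 1.07% of the 10960 genes with as many counts. All 4 had an interval that left out an equal level, on the low side in replicate 2, against 9.58% of the 10960 genes. That share grows with depth: it was 17.5% lower and 29.1% higher in replicate 2 among the 779 genes with at least 10000 summed counts.

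In size the ratios were ordinary. The median absolute log2 ratio over the 10960 genes was 0.11, and 16.7% to 22.4% of those genes had a lower ratio than the 4 RNAs. The 7 other named small RNAs with at least 200 counts were mixed, with a median log2 ratio of -0.13 and 1 of 7 intervals that left out an equal level. Scarna2 was at -0.19, Snora73b and Snora73a both at -0.15, Rprl3 at -0.13 and Rnu2-10 at -0.07, whereas Scarna13 was at 0.09 and Scarna6 at 0.20. Of the protein lists, the signal recognition particle genes had a median of 0.08, the 7SK particle genes 0.00 and the RNase P and MRP genes 0.05, each on the same log2 scale. The red blood cell markers were lower in replicate 2 at 5 of 5 genes, with a median log2 ratio of -0.93, and the heart muscle markers were higher at 9 of 9 with a median of 0.08. The markers of other cell types had a median of -0.14 over the 13 with at least 200 counts, close to that of the structural RNAs, with 7 intervals on the low side and 2 on the high side. Among them Lyz2, a macrophage gene, was at -1.63, Ptprc, the leukocyte antigen CD45, at -1.34 and Msln, of the mesothelium, at -0.72, and Plin1, of adipocytes, was at -2.13 on fewer than 200 counts. Csf1r, also a macrophage gene, was at only -0.11, with an interval of -0.32 to 0.11. The 2 markers with intervals on the high side were Dcn at 0.18 and Cdh5 at 0.10. The part of tissue makeup in the ratios of the structural RNAs was not tested, and with 1 library an animal, the animal and its library cannot be told apart.

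**Figure D4:**
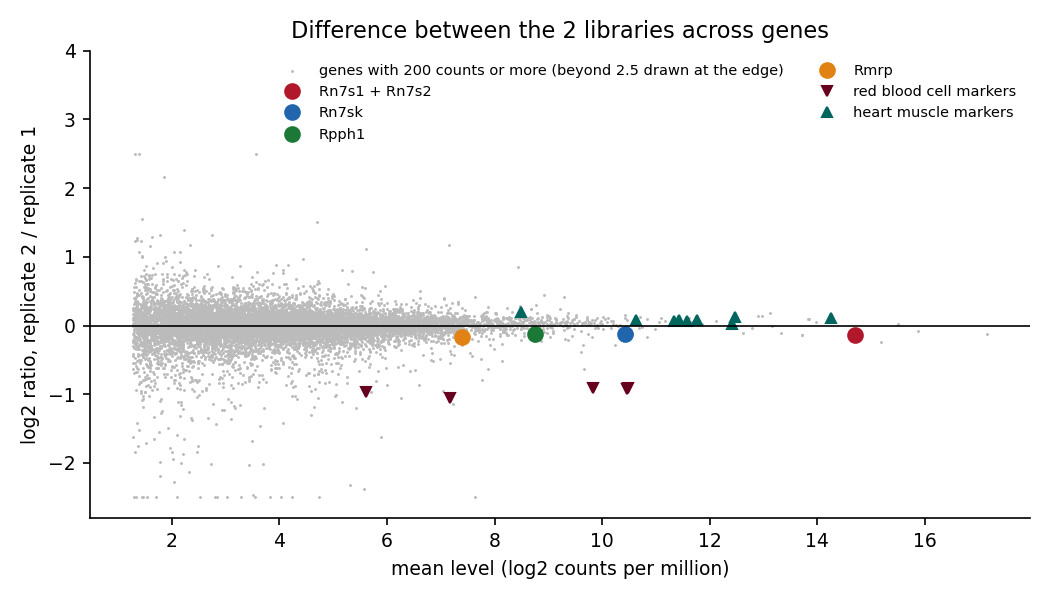
Log2 ratio of replicate 2 over replicate 1 against mean level in log2 CPM (counts scaled to library total) for the 10960 genes with 200 counts or more (grey), with ratios beyond 2.5 drawn at the edge, and with the RNAs, the red blood cell markers and the heart muscle markers in colour. The 4 RNAs sit just below equal, near -0.14, and the red blood cell markers lie lower, near -0.93.

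The sign of the difference depended on the quantification's length term and not on its counts. In the second quantification the counts were again lower in replicate 2, at -0.11 for the Rn7s sum, -0.15 for Rn7sk, -0.16 for Rpph1 and -0.13 for Rmrp after TMM scaling. Its deposited TPM were instead higher in replicate 2, at 0.19, 0.06, 0.08 and 0.22. The effective lengths that it used fell by 0.35, 0.26, 0.30 and 0.42 on the log2 scale in replicate 2 against replicate 1, which is more than the counts differed. For transcripts over 1 kb the same tables subtract a median of 249 bases in replicate 1 and 248 in replicate 2, a nearly equal length term. The first quantification subtracts 100 bases in both libraries, and its TPM gave ratios of -0.10, -0.09, -0.09 and -0.13.

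**Figure D5:**
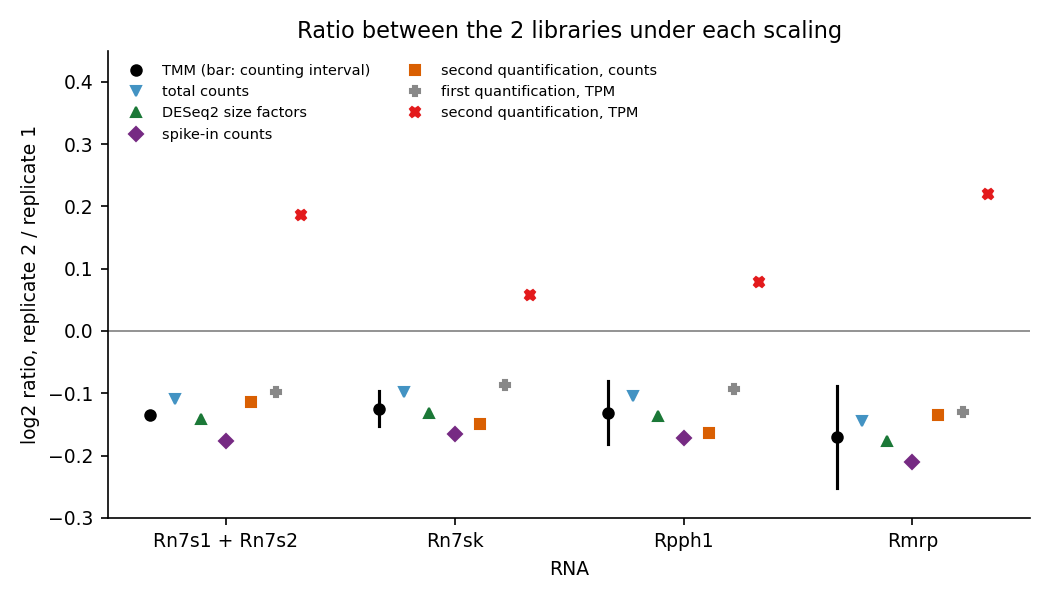
Log2 ratio of replicate 2 over replicate 1 for the 4 RNAs with at least 200 summed counts under 7 scalings, with the counting interval drawn as a bar for TMM. All ratios from counts and from the first quantification's TPM are below 0, and the second quantification's TPM are above 0 for all 4.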

How the data were processed

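Total RNA libraries from the heart of 2 mice were read from the deposited tables of both libraries. The authors deposited expected counts, TPM and FPKM per gene and per transcript, in the column layout of RSEM per the file headers, derived from transcriptome alignments against mm10 and GENCODE M21. The transcript tables also give a percent for the share of a transcript in its gene, deposited by the authors and used only to see that each member gene has 1 transcript. A second set of estimated counts and TPM per transcript was deposited in the column layout of kallisto per the file headers, made from the reads with the same annotation. The sources used here name neither the aligner nor the version of either tool. The deposited FPKM were not used.

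Members were found by symbol in the transcript identifiers and joined on the gene identifier. Rows of spike-ins and numeric identifiers stayed out of library totals; the spike-ins held 85499 and 85175 counts. Expected counts were rounded for counting steps. Ratios used TMM (edgeR 4.0.16 in R 4.3.3) on genes that passed its filter on low counts, with exact Clopper-Pearson intervals of 99.9%, for genes with at least 200 summed counts. Shares of counts have exact Clopper-Pearson 95% intervals, of 2.976% to 2.986% in replicate 1 and 2.759% to 2.770% in replicate 2 for all members together, and intervals cover counting error only. Alternatives were DESeq2 1.42.0 size factors, total counts, spike-in counts, other count minimums, full annotated length, the second quantification, and leaving out each library. The interval step was tested on simulated data. Sequences were read from the GENCODE M21 transcripts, identities were computed with Biopython 1.88, and 31-base runs were matched on the strand of the RNA. The genes named are all members, all genes of lists of up to 11 genes (some RNA polymerase III subunits and 1 RNA sequence are not reported here) or the highest 4 of longer ones, rank neighbours, nearest or overlapping genes, the 5 highest genes of the types misc_RNA and ribozyme, and the transcripts that share most runs; Rny1, Rny3, Vaultrc5, Bc1, Rnu6, Rprl1 and Rprl2, and the genes named beside the ratios, were chosen after their values were seen. The members and lists were chosen with earlier results of these data known.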

Additional observations from a re-analysis of the deposited data

How the results depend on the processing

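The order of the RNAs held under every alternative run, and the levels moved with the denominator. In TPM, the second quantification gave 196711 for the Rn7s sum, 10247 for Rn7sk, 2695 for Rpph1, 1392 for Rmrp and 1.72 for Terc. Full annotated length gave 127365, 5926, 1943 and 870 TPM for the first 4. Without mitochondrial genes the levels were 256301, 11392, 3796, 1829 and 1.52 TPM, and without the members in the denominator 196214, 8721, 2906, 1401 and 1.16 TPM. Single libraries gave 156711 to 167734 TPM for the Rn7s sum. The share of counts on all members was 1.89% in the second quantification and 4.28% without mitochondrial genes. Ratios of replicate 2 over replicate 1 (log2) for the Rn7s sum were -0.11 with total counts, -0.14 with DESeq2 size factors, -0.18 with spike-in counts, -0.13 with TMM without a filter, -0.11 with the second quantification's counts and -0.10 with deposited TPM. Those for Rn7sk were -0.10 with total counts, -0.17 with spike-in counts, -0.15 with the second quantification's counts and -0.087 with deposited TPM; those for Rpph1 were -0.17 with spike-in counts, -0.16 with the second quantification's counts and -0.093 with deposited TPM. The deposited TPM of the second quantification, an alternative chosen after seeing the data, reversed the ratios to 0.19 for the Rn7s sum, 0.058 for Rn7sk, 0.079 for Rpph1 and 0.22 for Rmrp, through its shorter effective lengths in replicate 2. The count of genes that differed by 2-fold between the animals was 117, but 314 with a minimum of 50 summed counts and 469 with none. No paired analysis was possible because both libraries form a single group. Depth limits Terc alone among the 5, at 12 and 9 counts.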
